A study of Mus musculus with 40 samples.

Results

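Levels of 10 genes that encode cardiac, slow-fiber or fetal isoforms of sarcomere proteins were followed through 8 groups of this mouse muscle series. They are Actc1, Acta1, Myl2, Myl3, Myl4, Tnnt1, Tnnt2, Tnni1, Tnnc1 and Mybph, and they were taken by name from the 22844 genes of the tables of counts and of TPM, a transcript level corrected for length and library size, in which all 10 were listed. Only 6 of them encode proteins of the thin filament (Actc1, Acta1, Tnnt1, Tnnt2, Tnni1 and Tnnc1). Myl2, Myl3 and Myl4 are myosin light chains and Mybph is a myosin-binding protein, so these 4 belong to the thick filament, and Acta1 is the main actin of adult skeletal muscle.

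The samples were whole extensor digitorum longus (EDL) muscles, a fast hindlimb muscle, from 3- and 9-month-old mice of the strain given as Tsc1tm1Djk/J. TSCmKO mice lack Tsc1, a brake on the kinase complex mTORC1, in skeletal muscle fibers, and the controls (CON) were Tsc1 fl/fl littermates that carry the floxed gene without Cre recombinase. The promoter that drives Cre is not given in the sources used here. Mice of both genotypes received intraperitoneal injections of vehicle or of rapamycin (RM), an mTORC1 inhibitor, given in the labels as 4 mg/kg for 3 days, whereas a figure legend of the study states a larger amount per day, so the dose is uncertain. The groups are 3mCON, 3mCON+RM, 3mTSCmKO, 3mTSCmKO+RM, 9mCON, 9mCON+RM, 9mTSCmKO and 9mTSCmKO+RM, with 5 libraries each, and groups without +RM received vehicle.

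A striated muscle fiber builds its filaments from isoform sets that differ between fast fibers, slow fibers, the heart and the embryo. Slow fibers and the heart share several genes: Tnnc1 encodes troponin C and Myl2 and Myl3 encode the regulatory and essential light chains of both tissues, while Tnnt1 and Tnni1 encode the slow skeletal troponins T and I, and Tnnt2 encodes cardiac troponin T. Actc1 (cardiac actin) and Myl4 (the atrial and embryonic essential light chain) are made in developing skeletal muscle and are low in adult fast fibers.

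The 40 libraries held 8883870 to 35224669 counts, and 13543 genes reached 1 CPM (counts scaled to library size) in at least 5 libraries and were tested. Tsc1 itself stood at 14.1 to 40.3 TPM in 9mCON and 8.02 to 13.2 TPM in 9mTSCmKO (log2 fold change -1.55 ± 0.17, adjusted p = 2.33e-09, edgeR). At 3 months it stood at 26.0 to 43.8 TPM in CON and 9.24 to 11.3 TPM in TSCmKO (log2 fold change -1.99 ± 0.17, adjusted p = 2.49e-11). Of the 10 members, 9 reached 1 CPM in all 40 libraries. Tnnt2 did so in 7 libraries, 4 of them in 9mTSCmKO, so it entered the test mainly through the group in which it was high, and counts of members are given here over the other 9. All ± values on log2 fold changes are standard errors with n = 5 libraries a group, and all tests are edgeR quasi-likelihood tests in one model of the 40 libraries, with Benjamini-Hochberg adjustment over all 13543 genes and a threshold of 0.05. Contrasts that use the same group share its 5 libraries. A pair of libraries held extreme levels of the slow isoforms, 3mTSCmKO replicate 2 at the low end and 3mCON replicate 3 at the high end, and results at 3 months are given with and without them where they matter.

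In vehicle-treated controls the member levels spanned several orders of magnitude. Acta1 was the most abundant gene of the whole table by mean TPM in 3mCON and the second most abundant in 9mCON, at 35472 ± 3649 TPM (SD, n = 5). The other 9 stood far lower in 9mCON, in the order Actc1 (212.7 ± 92.01 TPM), Mybph, Myl2, Tnnt1, Tnnc1, Myl4, Myl3, Tnni1 (5.17 ± 1.99 TPM) and Tnnt2 (0.296 ± 0.078 TPM). Library ranges of neighbours in that order overlapped except between Acta1 and Actc1, between Myl3 and Tnni1 and between Tnni1 and Tnnt2. In 9mTSCmKO the order was Acta1, Myl2, Tnnc1, Actc1, Tnnt1, Myl4, Myl3, Tnni1, Mybph and Tnnt2, and the neighbours that did not overlap were Acta1 and Myl2, Myl2 and Tnnc1, Tnni1 and Mybph, and Mybph and Tnnt2. Among all genes Myl2 stood at rank 2671 by mean TPM in 9mCON and at rank 64 in 9mTSCmKO, and Tnnc1 moved from rank 3130 to 305.

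**Figure D1:**
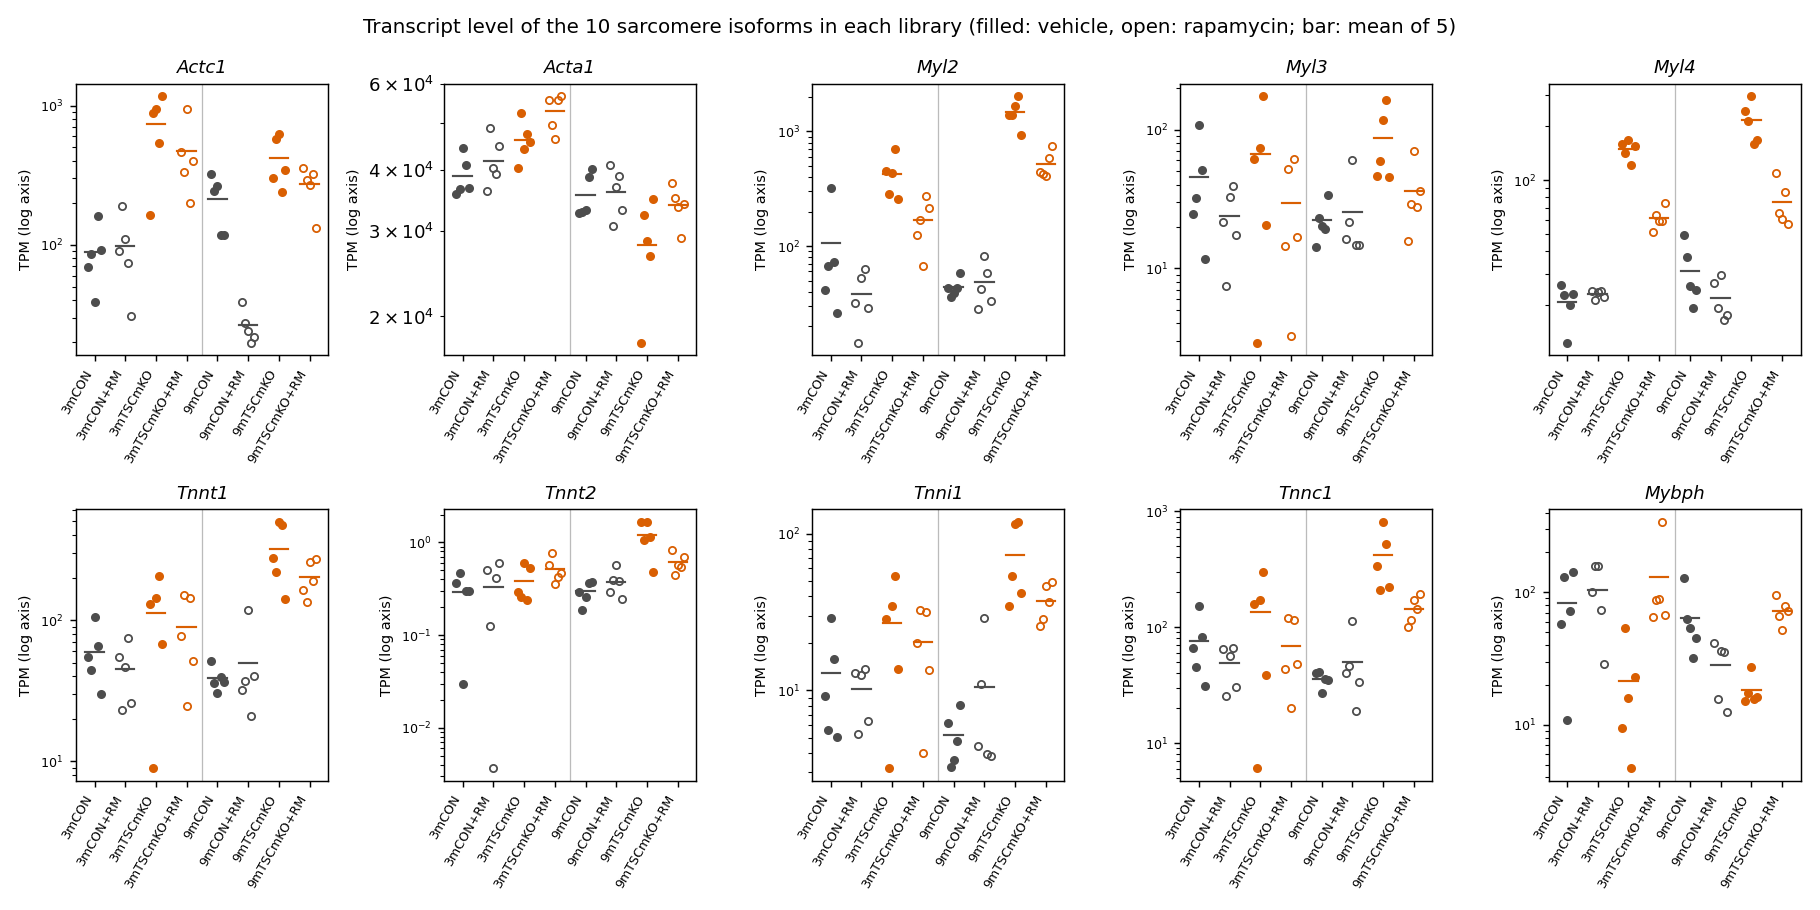
TPM (log axis) of each of the 10 genes in every library, with 5 points a group (filled for vehicle, open for rapamycin) and the group mean as a bar. Myl2, Myl4, Tnnt1, Tnni1 and Tnnc1 in 9mTSCmKO lie above every 9mCON library, Acta1 stays between 17683 and 56719.7 TPM throughout, and Actc1 is lowest in 9mCON+RM (19.8 to 38.9 TPM).

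The sequences upstream of these genes are shown for 5 members, because Actc1 and Acta1 encode near-identical proteins while the 2 genes took different levels, and because Myl3, Tnnc1 and Tnnt1 varied together from library to library. They are the 250 bases before the RefSeq start in GRCm38.p6, written 5′ to 3′ on the gene's strand, with matches to the CArG box (the site of serum response factor, SRF) and to the MCAT site (CATTCC, the site of TEAD factors, on either strand) in capitals. The windows are chr2:114052876-114053125 (minus) for Actc1, chr8:123894776-123895025 (minus) for Acta1, chr9:110763428-110763677 (plus) for Myl3, chr14:31208062-31208311 (plus) for Tnnc1 and chr7:4515976-4516225 (minus) for Tnnt1.
Actc1: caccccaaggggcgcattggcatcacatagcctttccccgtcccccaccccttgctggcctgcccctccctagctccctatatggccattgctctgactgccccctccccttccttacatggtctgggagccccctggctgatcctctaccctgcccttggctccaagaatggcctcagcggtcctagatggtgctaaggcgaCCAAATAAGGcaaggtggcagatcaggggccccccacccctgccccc
Acta1: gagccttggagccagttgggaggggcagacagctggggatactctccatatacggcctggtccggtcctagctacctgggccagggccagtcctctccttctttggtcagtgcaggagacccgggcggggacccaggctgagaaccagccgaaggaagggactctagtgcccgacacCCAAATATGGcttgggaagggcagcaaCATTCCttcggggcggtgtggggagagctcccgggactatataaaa
Myl3: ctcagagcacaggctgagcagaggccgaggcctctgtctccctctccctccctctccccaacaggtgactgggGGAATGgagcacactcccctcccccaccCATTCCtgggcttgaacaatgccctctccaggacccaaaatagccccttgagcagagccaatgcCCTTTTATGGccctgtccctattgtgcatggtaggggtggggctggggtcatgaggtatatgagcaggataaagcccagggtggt
Tnnc1: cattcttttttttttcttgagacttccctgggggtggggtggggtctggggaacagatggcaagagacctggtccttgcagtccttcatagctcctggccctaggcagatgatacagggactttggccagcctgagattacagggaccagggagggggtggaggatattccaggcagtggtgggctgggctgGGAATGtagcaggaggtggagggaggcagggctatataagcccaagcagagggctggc
Tnnt1: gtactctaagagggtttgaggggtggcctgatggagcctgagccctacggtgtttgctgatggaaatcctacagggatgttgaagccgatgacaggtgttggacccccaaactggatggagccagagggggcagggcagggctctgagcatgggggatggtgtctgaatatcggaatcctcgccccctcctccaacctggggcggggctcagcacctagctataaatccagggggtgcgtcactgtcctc
The CArG box began 47 bases before the start in Actc1, 73 bases before it in Acta1 and 85 bases before it in Myl3. These were the only 3 members with a match, and 1.47% of the 32851 mouse promoter windows of this length held one. MCAT matches lay in 5 members (Acta1, Mybph, Myl3, Tnnc1 and Tnnt2) against 12.6% of all windows, E-boxes (CANNTG) in 8 members against 66.2%, and MEF2 sites in 0 members against 2.92%. A member was counted if any of its windows matched, and the 10 members had 13 windows, while the shares are per window. The Tnnt1 window held 1 E-box, 158 bases before the start, and none of the other motifs. For Myl2 the RefSeq starts lie 7762 and 8227 bases outside the GENCODE gene body, so its windows may not be the promoter used. Those of Actc1, Myl3 and Tnnt1 lie 673, 21817 and 407 bases inside the GENCODE gene and those of Tnni1 lie 19987 and 20077 bases inside it, each within 32 bases of the start of a GENCODE transcript, and for Tnnt2 1 of 2 starts lies 635 bases inside. Levels were per gene, so which start was used was not measured.

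At 9 months, TSCmKO muscle held more of Myl2, Myl3, Myl4 and the slow troponins Tnnt1, Tnni1 and Tnnc1 than the controls. Of the 9 members, 8 passed the test in 9mTSCmKO against 9mCON, compared with 37.9% of all tested genes. Of these, 6 were higher (19.1% of all genes) and 2 were lower (18.9% of all genes). The median log2 fold change of the 9 was 2.75, where that of all genes was -0.02.

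Myl2, the regulatory light chain of slow and cardiac muscle, showed the largest change of the 10. The 9mCON libraries held 43.2, 36.0, 38.7, 43.1 and 58.5 TPM, and the 9mTSCmKO libraries held 1393, 1399, 1669.9, 2043 and 930.0 TPM. Every knockout library was thus above every control, and the log2 fold change of TMM-scaled counts was 5.04 ± 0.51 (32.9-fold, adjusted p = 1.18e-09, edgeR). Myl4, the atrial and embryonic light chain, held 49.1, 37.1, 25.5, 19.1 and 24.2 TPM in 9mCON and 243, 214, 295, 159.7 and 167 TPM in 9mTSCmKO. Its groups were again apart, with a log2 fold change of 2.75 ± 0.25 (6.7-fold, adjusted p = 5.56e-11). Myl3, the slow and cardiac essential light chain, rose less, by 1.89 ± 0.69 (3.72-fold, adjusted p = 0.0297), from 14.1, 22.9, 20.3, 19.3 and 34.1 TPM to 46.4, 59.6, 117, 165 and 45.7 TPM. The ranges did not overlap, but the call was lost without 9mCON replicate 1, 3 or 4 or 9mTSCmKO replicate 3 or 4 (log2 fold change 1.57 to 1.87, adjusted p = 0.0535 to 0.0861).

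The 3 slow troponins rose together at this age. Tnnc1, which encodes the calcium-binding subunit of slow and cardiac troponin, held 40.2, 41.4, 27.3, 35.7 and 35.1 TPM in 9mCON and 336, 211, 812, 523 and 224 TPM in 9mTSCmKO (log2 fold change 3.48 ± 0.64, 11.2-fold, adjusted p = 5.13e-05, edgeR). Tnni1, the slow inhibitory subunit, stood at 6.18, 3.24, 3.60, 4.78 and 8.07 TPM in 9mCON and at 34.8, 53.6, 116, 119 and 41.8 TPM in 9mTSCmKO (3.73 ± 0.61, 13.3-fold, adjusted p = 9.51e-06). Tnnt1, the slow subunit that binds tropomyosin, went from 51.1, 35.6, 30.4, 39.3 and 36.6 TPM to 273, 221, 497, 475 and 140.3 TPM (2.99 ± 0.55, 7.95-fold, adjusted p = 5.73e-05). None of the 3 genes had a knockout library within the control range, and replicates 3 and 4 of 9mTSCmKO were the highest for Tnnt1, Tnni1 and Tnnc1. Cardiac Tnnt2 held 8, 5, 5, 11 and 11 counts in the 9mCON libraries and 51, 27, 52, 30 and 17 counts in 9mTSCmKO, that is 0.188 to 0.379 TPM against 0.480 to 1.68 TPM. Its fitted log2 fold change of 1.94 ± 0.43 is a description only, since the filter admitted Tnnt2 mainly through 9mTSCmKO, and it stayed under 2 TPM in all 40 libraries.

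Acta1 and Mybph were lower at 9 months, and Actc1 did not pass. Acta1 held 32649, 32727, 33145, 38643 and 40194 TPM in 9mCON and 17683, 32250.2, 28569, 26632 and 34899 TPM in 9mTSCmKO. These ranges overlap, replicate 1 of the knockout being the lowest, and the log2 fold change was -0.39 ± 0.14 (adjusted p = 0.030, edgeR). It was lost without 9mCON replicate 2, 4 or 5 or 9mTSCmKO replicate 1 or 4 (-0.37 to -0.28, adjusted p = 0.0572 to 0.122) and with only the compared groups in the fit (-0.36, adjusted p = 0.157). Actc1 held 324, 241, 263, 118 and 118 TPM in 9mCON and 299, 576, 626, 238 and 346 TPM in 9mTSCmKO, which overlap, and its log2 fold change of 0.89 ± 0.48 did not pass (adjusted p = 0.147). Mybph, a relative of myosin-binding protein C, fell by 1.88 ± 0.62 on the log2 scale (3.69-fold, adjusted p = 0.0157). Its 9mCON libraries held 127, 63.3, 53.8, 31.8 and 45.2 TPM and its 9mTSCmKO libraries 15.1, 17.3, 27.3, 15.6 and 16.2 TPM, all below the controls. Without 9mCON replicate 1, the highest control, the log2 fold change was -1.48 (adjusted p = 0.0603).

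**Figure D2:**
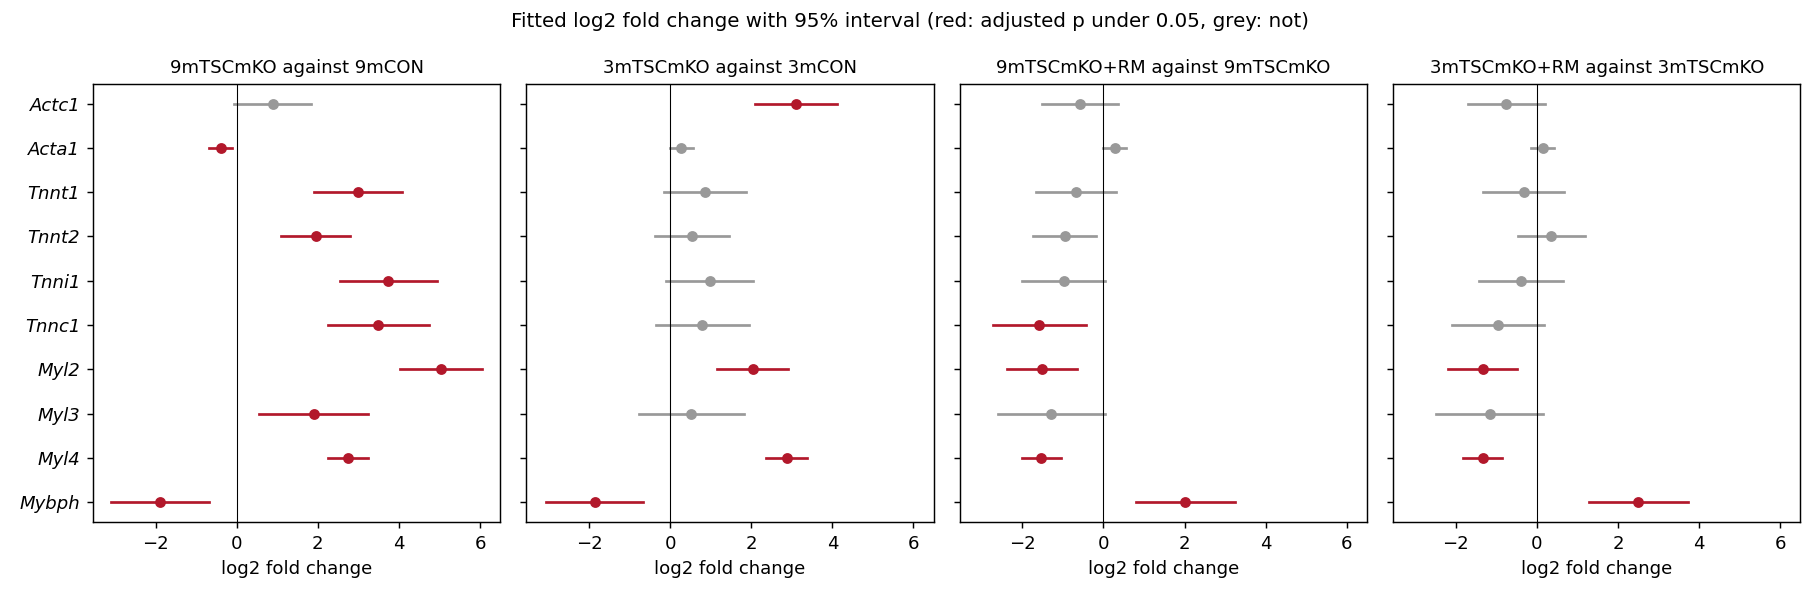
Log2 fold change of TMM-scaled counts (points) with the 95% interval (bars) for each of the 10 genes in 4 contrasts, with red points where the adjusted p was under 0.05 and grey points elsewhere, those of Tnnt2 being a description. Myl2 in 9mTSCmKO against 9mCON lies at 5.04, Myl4 lies at 2.75 and 2.88 in the genotype contrasts and at -1.53 and -1.34 in the rapamycin contrasts, and Mybph takes the opposite sign to Myl4 in all 4.

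At 3 months Actc1 and Myl4 led the differences between the genotypes. In 3mTSCmKO against 3mCON, 4 of the 9 members passed the test (19.8% of all genes), 3 of them higher (11.4% of all genes) and 1 lower (8.32% of all genes). The median log2 fold change of the 9 was 0.87 and that of all genes -0.02, and ranges were apart for Actc1 and Myl4.

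Actc1, the cardiac actin, held 69.4, 85.5, 38.9, 160.0 and 92.2 TPM in 3mCON and 163, 881, 949.6, 540.5 and 1171 TPM in 3mTSCmKO. Replicate 1 of the knockout lay just above the highest control and the other 4 far above it, and the log2 fold change was 3.10 ± 0.52 (8.58-fold, adjusted p = 2.95e-05, edgeR). Myl4 held 25.8, 22.8, 12.4, 20.1 and 22.9 TPM in 3mCON and 159.5, 142, 168, 121 and 156 TPM in 3mTSCmKO (2.88 ± 0.26, 7.34-fold, adjusted p = 9.11e-11). No knockout library was under 121 TPM and no control was over 25.8 TPM. Myl2 held 41.5, 66.8, 319.7, 72.8 and 26.1 TPM in 3mCON and 456, 286, 438, 707 and 257 TPM in 3mTSCmKO, so that replicate 3 of the controls lay inside the knockout range. Its log2 fold change was 2.03 ± 0.45 (adjusted p = 0.00101) and became 3.01 without that library (adjusted p = 6e-07). With only the 2 compared groups in the fit it did not pass (2.03, adjusted p = 0.0516).

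The slow troponins did not pass at 3 months. Tnnt1 held 54.5, 44.5, 105, 65.1 and 30.1 TPM in 3mCON and 131, 8.92, 143, 206 and 68.1 TPM in 3mTSCmKO, with replicate 2 of the knockout below every control. Its log2 fold change was 0.87 ± 0.52 (adjusted p = 0.259, edgeR), that of Tnni1 was 0.98 ± 0.55 (adjusted p = 0.222), that of Tnnc1 0.80 ± 0.58 (adjusted p = 0.371) and that of Myl3 0.52 ± 0.66 (adjusted p = 0.635). Without 3mTSCmKO replicate 2 the 4 log2 fold changes were 1.17, 1.26, 1.12 and 0.84, and none passed (adjusted p = 0.0778, 0.0949, 0.144 and 0.41). Without 3mCON replicate 3 they were 1.15, 1.47, 1.21 and 1.11, and again none passed (adjusted p = 0.159, 0.080, 0.191 and 0.309). Tnnt2 held 10, 8, 1, 17 and 5 counts in 3mCON and 7, 7, 18, 11 and 25 counts in 3mTSCmKO, which overlap. Acta1 did not pass, at 0.27 ± 0.14 (adjusted p = 0.195). Mybph held 57.4, 129, 10.9, 72.0 and 143 TPM in 3mCON and 9.42, 53.9, 16.0, 4.69 and 23.1 TPM in 3mTSCmKO. The groups overlapped through replicate 3 of the controls, and it fell by 1.86 ± 0.61 on the log2 scale (adjusted p = 0.0284). That call was lost without 3mCON replicate 2 or 5 or 3mTSCmKO replicate 1, 3 or 4 (-1.75 to -1.58, adjusted p = 0.0672 to 0.0838), and also with no filter on low counts (-1.84, adjusted p = 0.0502), with insert size as a term (-1.58, adjusted p = 0.106) and with only the compared groups in the fit (-1.86, adjusted p = 0.134). Without 3mTSCmKO replicate 2 the log2 fold change of Mybph was -2.56 (adjusted p = 0.00428).

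The genotype effect was compared between the ages by an interaction term, which 3 members passed (4.94% of all genes). The log2 difference between the 9-month and the 3-month effect was 3.01 ± 0.63 for Myl2 (adjusted p = 0.00371, edgeR), 2.76 ± 0.81 for Tnni1 (adjusted p = 0.0393) and -0.66 ± 0.20 for Acta1 (adjusted p = 0.0498). Without 3mCON replicate 3 the Myl2 difference was 2.03 (adjusted p = 0.0157). The Acta1 call was lost under 7 of 9 other settings, with adjusted p from 0.0526 (limma) through 0.0542 (upper-quartile scaling), 0.0558 (RLE scaling), 0.0672 (replicate block), 0.0708 (no filter) and 0.0896 (insert size) to 0.130 (only the compared groups), and was kept with a filter of 5 CPM and with DESeq2 (0.0249). It was also lost without any of 13 of the 20 libraries, and the Tnni1 call without any of 10 of them (2.27 to 2.77, adjusted p = 0.0521 to 0.107). The Tnni1 call was also lost with insert size as a term (2.76, adjusted p = 0.0558) and with no filter (2.72, adjusted p = 0.0716). With only the compared groups it was lost too (2.77, adjusted p = 0.0826). Actc1 pointed the other way at -2.22 ± 0.69, with 8.58-fold at 3 months and an uncalled difference at 9 months, but missed the threshold (adjusted p = 0.0532), as did Tnnc1 at 2.69 (adjusted p = 0.0552).

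Within the TSCmKO mice, 6 of the 9 members passed in 9mTSCmKO against 3mTSCmKO (37.4% of all genes), 5 higher (19.1%) and 1 lower (18.3%). Myl2 was 3.89-fold higher at 9 months (log2 fold change 1.96 ± 0.44, adjusted p = 0.000876, edgeR) and Tnnc1, Tnnt1, Tnni1 and Myl4 were higher by 1.70, 1.58, 1.46 and 0.62, while Acta1 fell by 0.64 on the log2 scale. Insert size differed with age (175 to 239 nt at 3 months, 223 to 308 nt at 9 months), and with it as a term none of the 10 members, Tnnt2 included, passed by edgeR, with 1 at an unadjusted p under 0.05. For that fit 9mTSCmKO+RM replicate 5 was dropped for want of a value. The log2 fold changes then were 1.76 for Myl2 (adjusted p = 0.0573), 1.56 for Tnnc1 (0.206), 1.34 for Tnnt1 (0.230), 1.48 for Tnni1 (0.196), 0.35 for Myl4 (0.541) and -0.39 for Acta1 (0.186), so those of Myl2 and the troponins stayed near the values without the term, while those of Myl4 and Acta1 were smaller. With limma on log2(TPM + 1) the Tnnc1 value was 2.31 (adjusted p = 0.0036). Leaving out 9mTSCmKO replicate 3 left 2 of the 6 calls among the 9 members, ending those of Myl4, Tnnt1, Tnni1 and Tnnc1. The calls of Myl4, Tnni1 and Tnnc1 were also lost without 3mTSCmKO libraries (replicates 1, 2 or 4, replicates 2 or 5, and replicate 5) and those of Myl4 and Tnni1 without 9mTSCmKO replicate 1 and 4, with adjusted p of at most 0.161. Those of Myl4 (0.0660) and Tnni1 (0.0514) were lost with no filter, that of Myl4 with limma (0.0533), and those of Tnnc1 (0.110), Tnnt1 (0.0660) and Tnni1 (0.0618) with only the compared groups, as adjusted p. Marker lists moved between the same groups: 5 of 7 tendon markers were lower and 1 higher (summed TPM 109 to 331 in 3mTSCmKO, 44.5 to 91.7 in 9mTSCmKO), 3 of 4 fibroblast markers were lower (563 to 1039 against 248 to 616), 2 of 3 endothelial markers were lower (117 to 124 against 68.7 to 127) and 5 of 9 skeletal fiber markers were lower (66158 to 100989 against 69461 to 83936), while 1 of 3 spindle or slow muscle markers was higher (18.2 to 74.1 against 47.4 to 180.0) and 2 of 3 tested cardiomyocyte markers were higher (9.65 to 16.4 against 11.8 to 32.1). No gene of the first 4 lists or of the spindle list was at 0 in all libraries of either group, and their part in the members' values was not tested. In the controls, 0 members passed in 9mCON against 3mCON by edgeR, DESeq2 or limma (1.02% of all genes by edgeR), and 4 had an unadjusted p under 0.05. The nearest were Myl4 (0.75, adjusted p = 0.119) and Actc1 (1.34, adjusted p = 0.154).

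Short rapamycin treatment lowered a part of the isoforms in 9-month knockout muscle. In 9mTSCmKO+RM against 9mTSCmKO, 4 of the 9 members passed (32.6% of all genes), 1 higher (15.8%) and 3 lower (16.8%), and the median log2 fold change of the 9 was -0.98 where that of all genes was -0.04. Myl2 went down to 439.5, 429.5, 408, 585 and 754 TPM, below each of the 5 vehicle-treated knockouts (-1.52 ± 0.44, 2.87-fold, adjusted p = 0.00745, edgeR). Myl4 went down to 109.9, 65.6, 60.4, 85.6 and 56.9 TPM (-1.53 ± 0.24, adjusted p = 6.7e-06), and the ranges were apart from those of 9mTSCmKO. Tnnc1 stood at 99.4, 116, 170.2, 142 and 194 TPM, also with no overlap (-1.58 ± 0.58, adjusted p = 0.0361), but the call was lost without 9mTSCmKO replicate 3 or 4 or 9mTSCmKO+RM replicate 1, 2, 3 or 4 (-1.61 to -1.13, adjusted p = 0.0530 to 0.149), with no filter on low counts (-1.55, adjusted p = 0.0614), with a replicate block (-1.34, adjusted p = 0.0631) and with limma on log2(TPM + 1) (-1.39, adjusted p = 0.0828). Mybph moved the opposite way, to 94.7, 66.2, 51.7, 78.9 and 72.6 TPM, above every vehicle-treated knockout (2.02 ± 0.62, 4.06-fold, adjusted p = 0.0119). The other 5 of the 9 did not pass, with log2 fold changes of -0.68 for Tnnt1 (adjusted p = 0.319), -0.98 for Tnni1 (0.153), -1.29 for Myl3 (0.143), -0.58 for Actc1 (0.371) and 0.28 for Acta1 (0.131). Each of the 3 isoforms that fell held more in every 9mTSCmKO+RM library than in any 9mCON library, a contrast that was not tested. Of the marker lists, 6 of 9 skeletal fiber markers were higher and 1 lower (summed TPM 69461 to 83936 in 9mTSCmKO, 87546 to 100078 in 9mTSCmKO+RM) and 2 of 5 satellite cell markers were higher (17.6 to 22.2 against 24.1 to 35.5), while 1 of 7 tendon and 1 of 3 endothelial markers were lower. None of these markers was at 0 throughout a group, and their part in the members' values was not tested. The mean of Myl2 was 43.9 ± 8.73 TPM in 9mCON, 1487 ± 409 TPM in 9mTSCmKO and 523 ± 147 TPM in 9mTSCmKO+RM (SD, n = 5).

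At 3 months Myl2, Myl4 and Mybph passed the same test. In 3mTSCmKO+RM against 3mTSCmKO, 3 of the 9 passed (23.6% of all genes), 1 higher (10.6%) and 2 lower (13.0%). Myl4 held 51.0, 64.1, 58.8, 58.8 and 74.1 TPM after rapamycin, under every vehicle-treated knockout (-1.34 ± 0.24, 2.53-fold, adjusted p = 6.15e-05, edgeR). Myl2 held 124, 169.9, 67.3, 272 and 215 TPM, which overlaps with the vehicle range through replicate 4 (-1.34 ± 0.44, adjusted p = 0.0235). Without 3mTSCmKO replicate 4 or 3mTSCmKO+RM replicate 1 or 3 the Myl2 value was -1.24 to -1.09 (adjusted p = 0.0575 to 0.0839). Mybph rose to 64.9, 87.3, 89.5, 341 and 67.8 TPM, above all 5 vehicle-treated knockouts, with replicate 4 far above the rest (2.50 ± 0.62, 5.66-fold, adjusted p = 0.00308). Without that library the log2 fold change was 1.76 (adjusted p = 0.0314), and without 3mTSCmKO replicate 2 it was 3.22 (adjusted p = 0.000477). Actc1 held 462, 336, 948, 201 and 402 TPM and did not pass (-0.75, adjusted p = 0.281). Of the skeletal fiber markers 6 of 9 were higher and 1 lower here too (66158 to 100989 TPM summed in 3mTSCmKO, 102242 to 112110 TPM in 3mTSCmKO+RM), and 2 of 7 tendon markers were higher (109 to 331 against 224 to 442 TPM), as was 1 marker each of fibroblasts, macrophages, satellite cells and cardiomyocytes, the part of which was not tested.

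In control muscle rapamycin touched 1 member, at 9 months. Actc1 held 38.9, 27.3, 24.1, 19.8 and 21.7 TPM in 9mCON+RM, all under the lowest 9mCON library of 118 TPM, and the log2 fold change was -2.93 ± 0.52 (7.64-fold, adjusted p = 0.000319, edgeR). It was the 1 member of 9 that passed in 9mCON+RM against 9mCON (11.8% of all genes, 6.82% lower). Its rank among all genes by mean TPM went from 594 to 3857. Markers of connective tissue differed between the same groups: the summed TPM of 4 fibroblast markers was 578 to 1190 in 9mCON and 96.7 to 451 in 9mCON+RM, with 4 of 4 lower by the test, and the sum of 7 tendon markers was 59.3 to 370 against 23.1 to 54.1, with 6 of 7 lower. Of 4 macrophage markers, 3 were lower as well, at 7.50 to 25.8 TPM summed against 2.52 to 8.74 TPM. No gene of these 3 marker lists was at 0 in all libraries of either group, and the part of these tissues in the Actc1 value was not tested. In bulk muscle, fewer cells of a type and less RNA per cell cannot be told apart. At 3 months, 0 of the 9 members passed in 3mCON+RM against 3mCON by edgeR, DESeq2 or limma (0.679% of all genes by edgeR), and Myl2 alone had an unadjusted p under 0.05 (log2 fold change -1.42, adjusted p = 0.181). Actc1 held 90.2, 189, 109, 73.6 and 30.9 TPM in 3mCON+RM, overlapping with the 3mCON range (0.16, adjusted p = 0.986).

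The rapamycin effects were compared by interaction terms. Between CON mice of the 2 ages, Actc1 was the 1 member that passed (0.938% of all genes), with a log2 difference of -3.09 ± 0.70 (adjusted p = 0.0256, edgeR). Leaving out 3mCON replicate 5, 9mCON+RM replicate 2 or 9mCON+RM replicate 5 ended the call (-3.09 to -3.02, adjusted p = 0.0508 to 0.0624). Between genotypes at 9 months, 2 members passed (4.87% of all genes): Actc1 at 2.35 ± 0.69 (adjusted p = 0.0413) and Mybph at 3.14 ± 0.86 (adjusted p = 0.0295). The Actc1 call was lost without any of 14 of the 20 libraries (2.14 to 2.40, adjusted p = 0.0553 to 0.0737), and the Mybph call without 9mCON replicate 1 or 9mCON+RM replicate 2 or 5 (2.75 to 2.97, adjusted p = 0.0510 to 0.0571). With no filter neither passed (adjusted p = 0.0782 for Actc1 and 0.0523 for Mybph). At 3 months Myl4 was the 1 member that passed (3.45% of all genes), at -1.49 ± 0.35 (adjusted p = 0.0106).

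Knockout and control muscle were also compared under rapamycin. In 9mTSCmKO+RM against 9mCON+RM, 5 of the 9 members passed (20.6% of all genes), all higher (11.3% of all genes). The skeletal fiber markers summed to 106793 to 119990 TPM in 9mCON+RM and 87546 to 100078 TPM in 9mTSCmKO+RM. Sums of the other marker lists overlapped between these groups, and the part of any marker tissue was not tested. Actc1 differed by 3.24 ± 0.53 (9.44-fold, adjusted p = 1.84e-05, edgeR), with 358, 289, 269, 324 and 131 TPM in 9mTSCmKO+RM, and 9mCON+RM being the group lowered above. Myl2 differed by 3.32 ± 0.48 (9.97-fold), Myl4 by 1.66 ± 0.25 (3.15-fold) and Tnnt1 by 1.92 ± 0.53 (3.78-fold). Tnni1 differed by 1.72 ± 0.57 (adjusted p = 0.0266) with overlapping ranges, and by 2.51 (adjusted p = 0.00219) without 9mCON+RM replicate 3, which held 29.2 TPM where the other 4 held 3.81 to 10.9 TPM. Without 9mCON+RM replicate 1, 4 or 5 or 9mTSCmKO+RM replicate 5 it did not pass (1.52 to 1.61, adjusted p = 0.0578 to 0.0741), nor with no filter on low counts (1.70, adjusted p = 0.0502) or with insert size as a term (1.61, adjusted p = 0.0628). At 3 months, 3 of the 9 members passed (10% of all genes), all higher (5.67% of all genes) and with ranges apart: Actc1 (2.20 ± 0.50, adjusted p = 0.00309), Myl2 (2.12 ± 0.46, adjusted p = 0.00186) and Myl4 (1.39 ± 0.25, adjusted p = 0.000187).

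A group of 4 slow genes varied together within several groups. Myl3, Tnnt1, Tnni1 and Tnnc1 had the same lowest and the same highest library in 3mCON (replicates 5 and 3), in 3mCON+RM (replicates 2 and 4) and in 3mTSCmKO (replicates 2 and 4). They did not share both in the other 5 groups: 3mTSCmKO+RM had 1 lowest and 2 highest libraries among the 4 genes, 9mCON 3 and 3, 9mCON+RM 2 and 1, 9mTSCmKO 3 and 2, and 9mTSCmKO+RM 2 and 2. In 3mTSCmKO the highest library held 60.3 times the lowest for Myl3, 23.1 times for Tnnt1, 17.0 times for Tnni1 and 49.2 times for Tnnc1, against 2.75 times for Myl2 and 1.39 times for Myl4. Over the 40 libraries, with group means removed, the Pearson r of log2 CPM between any pair of the 4 was 0.898 to 0.959, a description over libraries that share groups and scaling. Myl2 shared the lowest and highest libraries of the 4 in 3mCON and 3mCON+RM, and their highest library in 3mTSCmKO. It had r of 0.608 to 0.723 with the 4. Actc1 had -0.446 with Myl2 and 0.514 with Mybph, and Myl4 had 0.559 with Mybph.

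**Figure D3:**
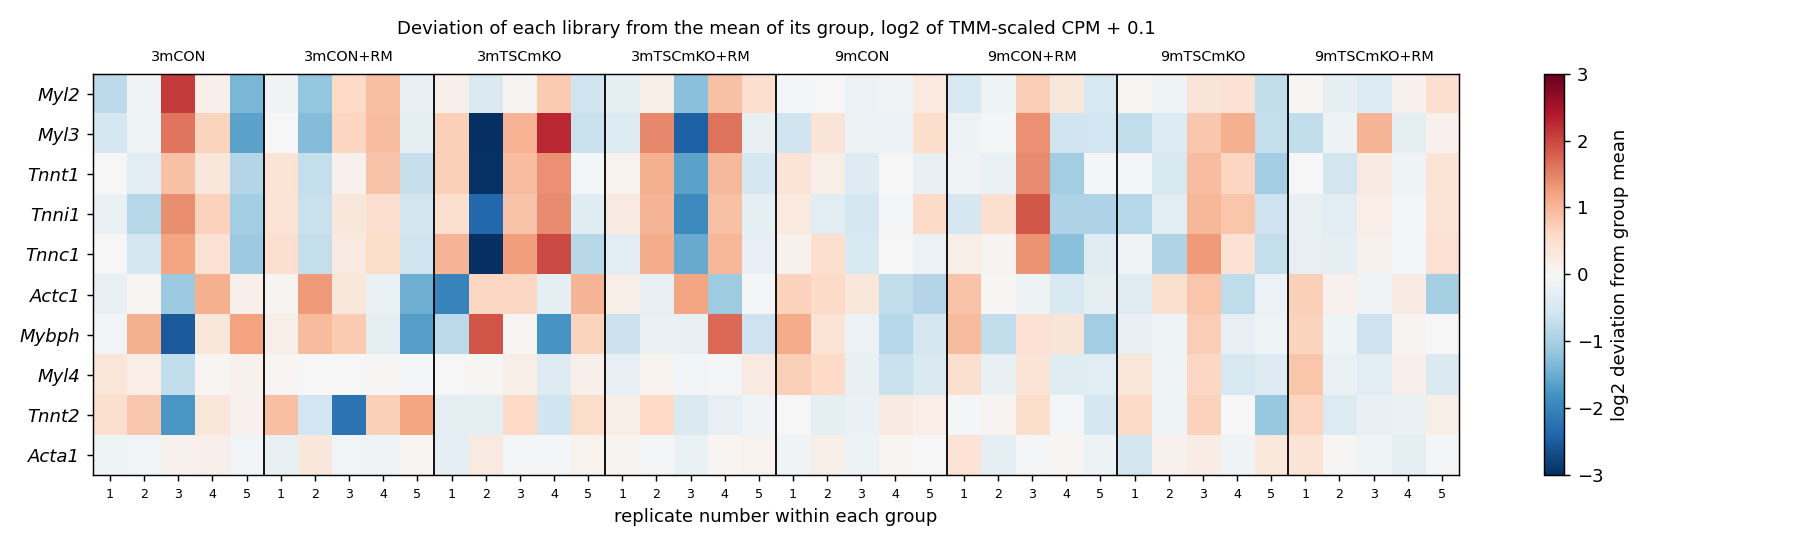
Deviation of log2 CPM from the group mean for each gene (rows) and library (columns), with the colour scale ending at 3 log2 units on either side. Myl3, Tnnt1, Tnni1 and Tnnc1 change colour together, with their lowest values in 3mTSCmKO replicate 2, while Acta1 stays near 0.

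The genes outside the 10 most like each member were found by log2 CPM over the 40 libraries, with group differences kept. Tpm3, a tropomyosin of slow fibers, was first for Tnnt1 (r = 0.965), Tnnc1 (0.952), Tnni1 (0.904) and Myl3 (0.830). Myh7, the slow and beta-cardiac myosin heavy chain, was among the first 3 for each of these 4. For Myl2 the first was Atp2a2, the slow and cardiac calcium pump (0.942), followed by Plekho1 (0.926) and Hspb7 (0.924). Atp2a2 was also among the first 3 for Tnni1 (0.883). With group means removed, its r was 0.866 with Tnni1 and 0.709 with Myl2. For Myl4 they were AI854703 (0.932), Ttll1 (0.932) and Cpe (0.928), for Actc1 B230312C02Rik (0.843), Echdc3 (0.832) and Bst2 (0.831), for Acta1 Slc19a1 (0.796), Psap and Fbxw5, and for Mybph Clec18a (0.690), Obsl1 and Idua. Tnnt2, low in most libraries, was most like Arhgef5 (0.735), Gm5796 and 6030407O03Rik.

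Set against their fast counterparts in the same library, the slow isoforms remained the smaller share. Myl2 stood at a median of 0.196% of Mylpf, the fast regulatory light chain, in 9mCON (range 0.163 to 0.354%), at 8.32% in 9mTSCmKO (4.85 to 11.6%) and at 2.75% in 9mTSCmKO+RM (2.20 to 4.73%), in TPM. Tnnc1 stood at 0.213% of Tnnc2 in 9mCON (0.176 to 0.323%) and at 2.01% in 9mTSCmKO (1.46 to 6.75%). Tnnt1 was at 0.0878% of Tnnt3 and then at 0.613%, and Tnni1 at 0.0171% of Tnni2 and then at 0.184%. None of these ranges overlapped between 9mCON and 9mTSCmKO. Myl4 was at 0.139% of Myl1, the fast essential light chain, in 9mCON (0.0788 to 0.175%) and at 1.55% in 9mTSCmKO (0.917 to 1.65%). Actc1 was at 0.234% of Acta1 in 3mCON (0.0878 to 0.392%), at 1.68% in 3mTSCmKO (0.404 to 2.57%), at 0.737% in 9mCON (0.293 to 0.993%) and at 0.0653% in 9mCON+RM (0.0511 to 0.0952%). Mybph relative to Mybpc2, the fast myosin-binding protein C, overlapped between 9mCON (1.41 to 5.72%) and 9mTSCmKO (1.38 to 4.29%), since Mybpc2 was lower as well.

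**Figure D4:**
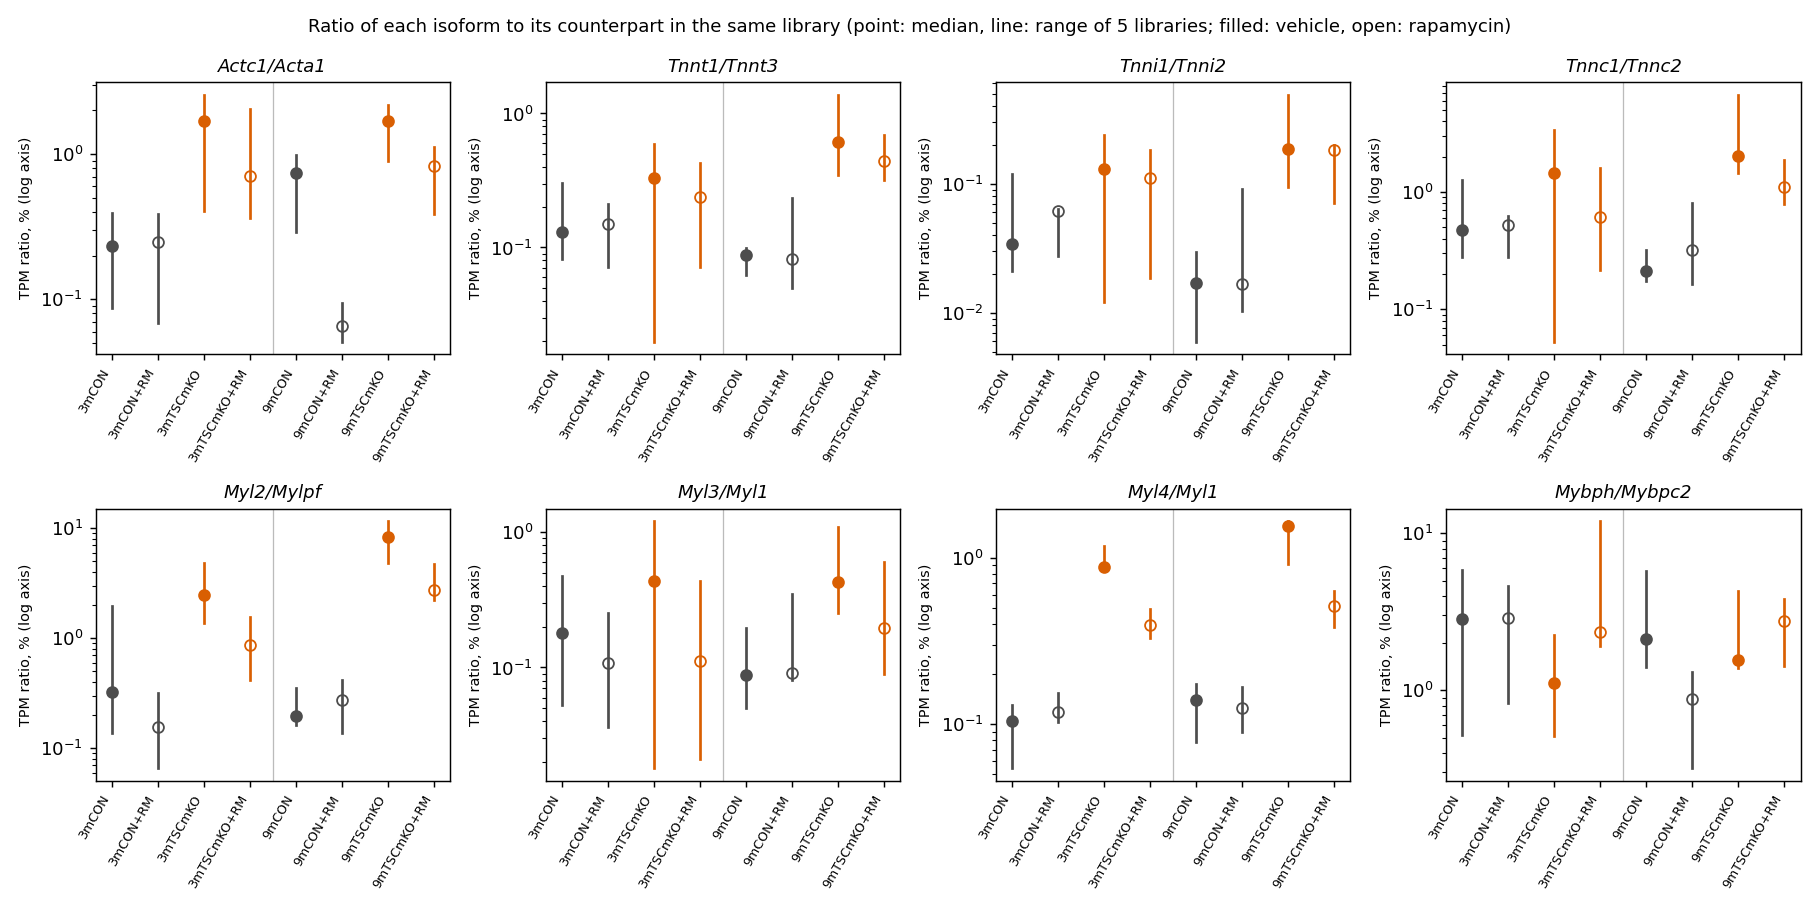
TPM of each slow, cardiac or fetal isoform as a percent of its fast or adult skeletal counterpart in the same library (log axis), with the group median as a point and the range of 5 libraries as a line. Myl2 relative to Mylpf rises from a median of 0.196% in 9mCON to 8.32% in 9mTSCmKO and stands at 2.75% in 9mTSCmKO+RM, and Actc1 relative to Acta1 is lowest in 9mCON+RM.

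Fast genes were set against the shares of all genes. Of 8 fast genes, 0 were higher (19.1% of all genes) and 3 lower (18.9%) in 9mTSCmKO against 9mCON: Mybpc2 (-1.31 ± 0.17, adjusted p = 9.14e-08, edgeR), the Z-disc protein Actn3 (-0.72 ± 0.16) and Myl1 (-0.62 ± 0.15). Tnnt3, Tnni2, Tnnc2, Mylpf and Tpm1 did not pass, with log2 fold changes of -0.28 to -0.15. Of 11 other slow-fiber genes, 8 were higher and 0 lower beside the same 19.1% and 18.9%, with a median of 1.47, led by Atp2a2 (4.07 ± 0.36), Myh7 (2.79 ± 0.52) and the Z-disc protein Csrp3 (2.29 ± 0.53). At 3 months 1 of the 11 was higher (11.4% of all genes), Atp2a2 (1.95 ± 0.33), and 1 of the 8 fast genes was lower (8.32%), Mybpc2 (-0.62 ± 0.17), both near the share of all genes. Under rapamycin in 9mTSCmKO, where 15.8% of all genes were higher and 16.8% lower, 2 fast genes were higher, Mybpc2 (1.60 ± 0.17) and Actn3 (0.94 ± 0.16), and of the slow genes 2 were higher and 3 lower.

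The other lists at 9 months are read against 19.1% of all genes higher and 18.9% lower. Of 17 other thin-filament and Z-disc genes, 7 were higher and 6 lower, among them Lmod2 (2.03 ± 0.30), which extends thin filaments, and Neb (-1.57 ± 0.36), the giant protein along them. Of 9 tested embryonic, neonatal or regeneration genes, 4 were higher and 2 lower, and Chrng, the fetal subunit of the acetylcholine receptor, differed by 4.67 ± 0.56. Of 4 other actins, 0 were higher and 1 lower (Acta2, -0.61), and of 23 tested regulators of sarcomere genes 5 were higher and 5 lower, close to those shares, with Ankrd1 leading at 4.10 ± 0.52. At 3 months, beside 11.4% and 8.32% of all genes, these lists had 4 higher and 3 lower, 0 and 0, 0 and 1, and 4 and 3, in the same order.

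Markers of heart muscle were low in all groups. Of 10 cardiac genes 8 were in the table and 3 were tested, with 2 higher in 9mTSCmKO against 9mCON. Nppa, the atrial natriuretic peptide, was at 0 in all 5 9mCON libraries and at 0.852 to 6.54 TPM in 9mTSCmKO, Tnni3 reached at most 3.99 TPM, and the sum of the 4 cardiomyocyte markers in the table was 5.69 to 21.7 TPM against 11.8 to 32.1 TPM. The sum of Myh7, Myh7b and Myh6, which mark slow muscle and muscle spindles, was 8.93 to 44.7 TPM in 9mCON and 47.4 to 180.0 TPM in 9mTSCmKO, with 2 of 3 higher. Myl2 and the slow troponins were also higher in that contrast. In 9mTSCmKO+RM the sum was 32.3 to 175.9 TPM, overlapping with 9mTSCmKO, while the Myl2 ranges of these 2 groups were apart. The part of an adjoining slow muscle or of spindles in the Myl2 and troponin values was not tested. The 9 skeletal fiber markers summed to 99164 to 114966 TPM in 9mCON and to 69461 to 83936 TPM in 9mTSCmKO, with 5 of 9 lower, and they were the most abundant of the marker lists in every group. Of the other lists in that contrast, 2 of 7 smooth muscle, 4 of 7 tendon, 3 of 4 fibroblast, 1 of 3 endothelial and 0 of 5 satellite cell markers were lower, and 1 of 4 macrophage markers was higher. At 3 months the marker sums of 3mCON and 3mTSCmKO overlapped for every list but smooth muscle (226 to 352 against 172 to 221 TPM). The part of these tissues in the members' values was not tested.

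The Actc1 locus held a further difference on the opposite strand. Actc1 lies at chr2:114047282-114053548 on the minus strand (GRCm38, GENCODE M21), A530058N18Rik (chr2:114013563-114068324, plus strand) overlaps it, and the antisense gene C130080G10Rik (chr2:114054335-114064868, plus strand) begins 787 bp away. C130080G10Rik held 0.715, 1.41, 0.268, 0.636 and 2.05 TPM in 3mCON and 5.07, 33.0, 39.2, 10.7 and 39.4 TPM in 3mTSCmKO. The groups were apart, replicate 1 of the knockout being lowest as it was for Actc1, and the fitted log2 fold change was 5.0 ± 0.49. C130080G10Rik held 4 to 17 counts in 3mCON and 1 to 15 in 9mCON, against 58 to 889 in 3mTSCmKO and 39 to 109 in 9mTSCmKO. It entered the test mainly through these vehicle-treated knockout groups, so its fitted values are a description only. After rapamycin it held 0.926, 1.02, 1.32, 0.899 and 1.46 TPM (fitted log2 fold change -4.66 ± 0.47), while Actc1 did not pass in that contrast. At 9 months its fitted log2 fold change was 3.16 ± 0.52 in 9mTSCmKO against 9mCON and -3.36 ± 0.53 after rapamycin in TSCmKO. A530058N18Rik held 4, 4, 2, 4 and 3 counts in 3mCON, 11, 86, 129, 48 and 212 counts in 3mTSCmKO, and 4, 4, 4, 2 and 4 counts in 3mTSCmKO+RM. Reads were counted by strand, so reads of these genes and of Actc1 were kept apart in the tables as far as the library's strand marking allowed.

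**Figure D5:**
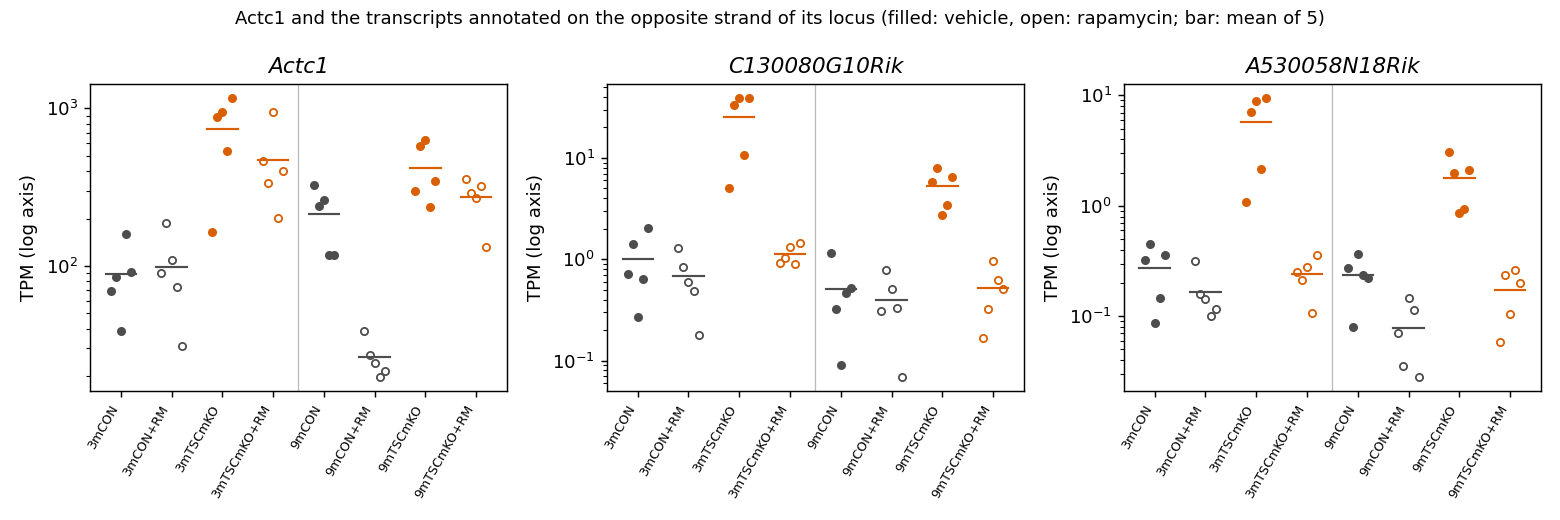
TPM (log axis) of Actc1 and of the opposite-strand genes C130080G10Rik and A530058N18Rik in each library, with the group mean as a bar. All 3 are higher in 3mTSCmKO than in 3mCON in all 5 libraries, and after rapamycin C130080G10Rik lies at 0.899 to 1.46 TPM while Actc1 lies at 201 to 948 TPM.

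Near the other members, the opposite-strand neighbour of Myl4, Cdc27 (43 bp away), a subunit of the anaphase-promoting complex, was higher in TSCmKO by 0.87 ± 0.15 at 9 months (adjusted p = 1.54e-05, edgeR) and by 0.75 at 3 months (adjusted p = 0.000245). Phlda3, 10298 bp from Tnni1 on the same strand, was higher by 0.56 ± 0.13 at 9 months (adjusted p = 0.001) and by 0.76 ± 0.13 at 3 months (adjusted p = 5e-05). At 9 months Gm29773, 1522 bp from Acta1 on the opposite strand, was lower (-0.46 ± 0.16, adjusted p = 0.0227), as was Nisch, which overlaps Tnnc1 on the opposite strand (-0.32 ± 0.10, adjusted p = 0.0151). At 3 months Nup133, 2372 bp from Acta1 on the same strand, was lower (-0.51 ± 0.10, adjusted p = 0.000309). Of the tested neighbours of these members, Adora1, Itgb3, Nup133, Ppp1r12c, Pth1r and Sema3g did not pass at 9 months, where 37.9% of all genes did. At 3 months Adora1, Gm29773, Itgb3, Nisch, Ppp1r12c, Pth1r and Sema3g did not pass, where 19.8% of all genes did. Reads shared with similar genes were few for most members: of the 31-base words of the transcripts, 0.756% for Actc1, 3.72% for Acta1 and 5.59% for Tnnc1 also occurred in another gene, and 0% of those of Actc1 occurred in Acta1. In the library with the lowest Actc1 share, 9mCON+RM replicate 4, Actc1 held 187 counts where Acta1 held 332876.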

How the data were processed

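EDL muscle poly(A) RNA was sequenced as stranded single-end reads, 1 library per labelled sample, 5 per group and 40 in all. The authors trimmed reads with cutadapt 1.9.1, matched them to GRCm38 transcripts with kallisto 0.43.1 and shared each read equally among the transcripts it matched. The deposited tables hold estimated counts per gene, as whole numbers, and TPM computed by the authors, which corrects for transcript length. The methods limit the reference to protein-coding transcripts, but 20.9% of the table's genes (1.49% of counts) are not protein-coding in GENCODE, so the transcript set is uncertain. From the counts, edgeR 4.0.16 in R 4.3.3 fitted 1 model of 8 group means (robust quasi-likelihood, TMM scaling, genes at 1 CPM or more in at least 5 libraries), checked on simulated data. The labels do not say whether libraries came from separate mice, but the text of the study gives each muscle sample as coming from its own animal, and total counts limit low genes such as Tnnt2. TPM was used for levels and ratios only. DESeq2 1.42.0 and limma 3.58.1 were alternatives. Named genes were the 10 members, Tsc1, 8 fast counterparts, at most 3 called genes with the largest change of each other list (2 or fewer are printed for some), the 3 genes most alike each member over 40 libraries, neighbours within 20 kb and the markers. The members and lists were chosen with earlier results of these data known. Promoter windows came from RefSeq, where 10 of 10 members matched. Replicate numbers were not taken as pairs in the main fit. Same-numbered samples had correlations of deviations from -0.459 to 0.561 over 140 pairs, with a median of 0.001. That median cannot show whether some groups were paired, and 34 of the pairs were over 0.1.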

Additional observations from a re-analysis of the deposited data

Results flagged for a closer look

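Samples were checked for a value far from the other 4 of their group over 80 groups of 5 libraries, where chance alone marks about 1 in 20. The gap to the nearest library divided by the group's range, both on the log2 CPM scale, exceeded the critical value of 0.71 in 5 of them. TPM are printed beside these ratios as levels only. Mybph in 9mTSCmKO replicate 3 (27.3 TPM) had a ratio of 0.878. Mybph in 3mTSCmKO+RM replicate 4 (341 TPM) had a ratio of 0.806. Tnnt2 in 3mCON replicate 3 (0.0298 TPM, 1 count) had a ratio of 0.74. Myl4 in 3mCON replicate 3 (12.4 TPM) had a ratio of 0.734. Myl3 in 9mCON+RM replicate 3 (60.8 TPM) had a ratio of 0.72.

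Differences between effects that passed the interaction test were marked as well. The genotype effect differed between 9 and 3 months by -0.66 for Acta1, 3.01 for Myl2 and 2.76 for Tnni1 on the log2 scale. The rapamycin effect at 9 months differed between TSCmKO and CON by 2.35 for Actc1 and 3.14 for Mybph, and at 3 months by -1.49 for Myl4. Between CON mice of 9 and 3 months it differed by -3.09 for Actc1.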

How the results depend on the processing

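No member changed direction as a called value under any alternative run. Counts in this paragraph and in those on single libraries are over the 10 members, Tnnt2 included, of which the 9 others are also given where the counts differ. Counts of members called moved by over 1.5 times as follows. With only the compared groups in the fit, 3mTSCmKO against 3mCON gave 2 (4 with all 40 libraries), 9mTSCmKO against 3mTSCmKO gave 3 (7, or 6 of the 9 others) and the genotype difference between ages gave 1 (3), a fit with fewer samples. With insert size as a term, 9mTSCmKO against 3mTSCmKO gave 0 and the genotype difference between ages gave 1. That difference gave 1 with no filter and 5 with DESeq2, and the rapamycin difference between genotypes at 9 months gave 0 with no filter (2 with it), the cause of which was not tested. With a replicate block, the genotype difference between ages gave 2, losing Acta1, and 9mTSCmKO+RM against 9mTSCmKO gave 3 (4), losing Tnnc1. Same-numbered pairs over a correlation of 0.1 were 34 of 140.

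Counts over all genes moved by over 1.5 times mostly with only the compared groups in the fit: 2647 in 9mTSCmKO against 9mCON (5133 with all 40 libraries), 2544 in 9mTSCmKO+RM against 9mTSCmKO (4410.0), 3324 in 9mTSCmKO against 3mTSCmKO (5064), 554 in 9mCON+RM against 9mCON (1604), 2495 in 3mTSCmKO+RM against 3mCON+RM (1359), 312 in the genotype difference between ages (669), 209 and 1194 in the rapamycin differences between genotypes at 9 and 3 months (660.0 and 467). With insert size, 9mTSCmKO against 3mTSCmKO gave 1701. The contrasts with few calls ranged from 38 to 419 in 3mCON+RM against 3mCON (92 called), from 26 to 375 in 9mCON against 3mCON (138) and from 48 to 255 in the rapamycin difference between ages in CON (127), and without a filter the rapamycin difference between genotypes at 9 months gave 435.

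Leaving out 1 library at a time gave 7 to 9 members in 9mTSCmKO against 9mCON (6 to 8 without Tnnt2), 3 to 4 in 3mTSCmKO against 3mCON, 3 to 5 in 9mTSCmKO+RM against 9mTSCmKO (3 to 4 without Tnnt2), 2 to 3 in 3mTSCmKO+RM against 3mTSCmKO, 4 to 6 in 9mTSCmKO+RM against 9mCON+RM, 3 to 7 in 9mTSCmKO against 3mTSCmKO (2 to 6 without Tnnt2) and 0 to 1 in 9mCON against 3mCON (1 without 9mCON replicate 5). The genotype difference between ages ranged from 1 to 6 (1 without 3mTSCmKO replicate 2 or 5, 9mCON replicate 2 or 3 or 9mTSCmKO replicate 4, 5 without 9mTSCmKO replicate 2 and 6 without 3mTSCmKO replicate 4). The rapamycin difference between ages in CON ranged from 0 to 1. The rapamycin difference between genotypes at 9 months ranged from 0 to 2, with 0 without 9mCON+RM replicate 2 or 5 and 1 without 9mCON replicate 1 or 3, 9mCON+RM replicate 3, 9mTSCmKO replicate 1 or 9mTSCmKO+RM replicate 2, 3 or 4. The contrasts 3mCON+RM against 3mCON, 3mTSCmKO+RM against 3mCON+RM and 9mCON+RM against 9mCON kept their counts. Depth limits Tnnt2, at 0 to 52 counts a library.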
